A study of Mus musculus with 14 samples.

Results

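The TGF-β group examined here holds 10 genes: the ligands Tgfb1, Tgfb2 and Tgfb3, the receptors Tgfbr1, Tgfbr2 and Tgfbr3, the signal transducers Smad2 and Smad3, the activin subunit gene Inhba, and Tgfbi. They were chosen by name among the 24454 genes of the count table; no threshold on their values was applied, but earlier results of these data were known. All 10 were found under their Entrez identifiers, and all 10 passed the filter on low counts that left 15125 genes. Reads were counted per gene in 14 RNA-seq libraries from cells of mouse forelimb buds, sorted by FACS into 5 populations. The embryos carried the Sox9 IRES-EGFP allele on a mixed Swiss Albino background, so that EGFP marks cells that express Sox9, the transcription factor of early chondrogenic cells. In all populations, dead cells and cells with endothelial, blood or epithelial surface markers were gated out.

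The S9-JAG1+ limb bud mesenchymal progenitors (LMPs) are Sox9-EGFP-negative cells with the NOTCH ligand JAG1 on their surface and without SCA-1 (3 libraries, E10.5). The S9-Pαhi LMPs lack Sox9-EGFP, JAG1 and SCA-1 and have high PDGFRα (3 libraries, E10.5). The S9+Pαhi osteochondrogenic progenitors (OCPs) have Sox9-EGFP and high PDGFRα (3 libraries, E10.5). The chondroblasts, labelled S9+COL2+, were taken at E11.5 through the gate that the labels also give for the OCPs (3 libraries), so that population and stage cannot be told apart for them. The S9-SCA-1+ cells have SCA-1 and lack Sox9-EGFP and JAG1 (2 libraries, E10.5, replicates 2 and 3). Each library comes from pooled buds, and no label ties a library to separate litters or days, so that p-values measure the spread between these libraries.

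TGF-β ligands are secreted in a latent form, held in the extracellular matrix until they are released. An active ligand binds the type II receptor, which recruits and phosphorylates the type I receptor; this in turn phosphorylates SMAD2 and SMAD3, which enter the nucleus with SMAD4 and regulate transcription. Activins use other receptors but the same Smads. In the limb, the pathway is known for its part in the condensation of mesenchyme before cartilage forms and in tendon and joint development.

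The stretches before the RefSeq start sites (build GRCm38.p6) are shown for Inhba and for the 3 genes that were called in the joint test described below and have an entry. Capitals mark CAGAC or GTCTG, the short Smad-binding motif on either strand, and TATAAA or TTTATA, the TATA motif on either strand; the motifs share no base here. Each stretch holds 250 bases and ends at the base before the start site: Tgfb2 lies on the minus strand at chr1:186705990-186706239, Tgfbr2 on the minus strand at chr9:116175364-116175613, Inhba on the plus strand at chr13:16011601-16011850, and Tgfbi on the plus strand at chr13:56609336-56609585.
Tgfb2: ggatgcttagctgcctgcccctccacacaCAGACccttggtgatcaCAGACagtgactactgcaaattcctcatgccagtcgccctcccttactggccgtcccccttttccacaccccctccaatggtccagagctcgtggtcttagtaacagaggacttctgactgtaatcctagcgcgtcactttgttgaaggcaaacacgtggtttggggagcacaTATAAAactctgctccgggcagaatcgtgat
Tgfbr2: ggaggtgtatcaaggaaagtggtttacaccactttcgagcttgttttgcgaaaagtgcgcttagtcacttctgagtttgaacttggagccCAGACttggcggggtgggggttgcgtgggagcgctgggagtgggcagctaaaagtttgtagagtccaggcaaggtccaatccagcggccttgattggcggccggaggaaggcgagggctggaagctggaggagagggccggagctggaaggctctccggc
Inhba: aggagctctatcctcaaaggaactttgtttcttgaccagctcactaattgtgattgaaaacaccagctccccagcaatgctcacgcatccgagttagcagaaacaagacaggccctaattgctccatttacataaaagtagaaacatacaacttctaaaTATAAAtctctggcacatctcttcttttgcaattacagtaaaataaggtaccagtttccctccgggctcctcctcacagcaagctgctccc
Tgfbi: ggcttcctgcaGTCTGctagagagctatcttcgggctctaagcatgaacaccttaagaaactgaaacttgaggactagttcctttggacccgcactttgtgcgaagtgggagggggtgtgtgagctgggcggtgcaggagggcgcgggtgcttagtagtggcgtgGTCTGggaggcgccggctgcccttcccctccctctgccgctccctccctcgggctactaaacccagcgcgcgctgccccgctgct
The Tgfb2 stretch had the Smad motif at 2 places and a TATA motif that began 31 bases before the start site. The Inhba stretch had a TATA motif that began 91 bases before the start site, and no Smad motif. Such letters are common: 42.2% of all 32851 stretches held the Smad motif and 12.4% the TATA motif. Entries were used for 7 of the 10 genes: Tgfb3 and Tgfbr3 had none, and Smad2 was left out. Of the 7 genes, 4 held the Smad motif (Tgfb2, Tgfbr2, Tgfbi and 1 of the 2 stretches of Tgfbr1). None of the 7 held TGAGTCA or TGACTCA, the AP-1 motif (4.46% of all stretches), or TGACGTCA, the cAMP response element (1.55%). A match is a run of letters and not a known binding site.

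The libraries held 20316583 to 29162751 counts. Levels within a gene are given as CPM, the counts scaled to a common library size by TMM, and between genes as RPKM, which divides CPM by the gene length of the deposited table. Up to 3 counts, which is 0.101 to 0.149 CPM in these libraries, served as the floor under which presence and absence look alike; this floor covers counting error only. The markers matched the gates in part. Sox9 was at 411 to 625 CPM in the OCP and chondroblast libraries and at 7.41 to 65.5 CPM in the others. Jag1 was at 228 to 364 CPM in the S9-JAG1+ LMPs, but also at 102 to 137 CPM in the chondroblasts. Col2a1, after which the chondroblasts are labelled, was at 1274 to 1886 CPM in them, but also at 695 to 1228 CPM in the OCPs. In the S9-JAG1+ LMPs, S9-Pαhi LMPs and S9-SCA-1+ cells it was at 23.2 to 31.0, 60.8 to 114 and 159 to 168 CPM. The S9-SCA-1+ cells had 3.23 ± 0.183 CPM (SD, n = 2) of Ly6a, the SCA-1 gene, together with 463 ± 49.3 CPM of Pax3 and 68.5 ± 9.71 CPM of Myf5, which mark myogenic precursors, and 34.4 ± 14.7 CPM of Pdgfra. In S9-SCA-1+ replicate 3 the red blood cell list of 6 genes summed to 2662 CPM, against 96.4 CPM in replicate 2 and at most 69.4 CPM elsewhere.

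A gene counted as called in a comparison if its log2 fold change was 1.2 or more in either direction and its adjusted p did not exceed 0.1 (edgeR's quasi-likelihood test, Benjamini-Hochberg adjustment over all 15125 tested genes). Inhba is kept out of all counts and tests below and is described by its reads alone, because it passed the filter on low counts only through the chondroblasts, where it is high. The first question was whether a gene differed among any of the 5 populations. In this joint test, which asks in addition for a range of fitted population means of at least 1.2 on the log2 scale, 5 of the other 9 genes were called (Tgfb2, Tgfb3, Tgfbr2, Tgfbr3 and Tgfbi), where 29.2% of all tested genes were called. Tgfbr1 and Smad2 passed the limit on p alone, as 74.8% of all tested genes did, and Tgfb1 and Smad3 passed neither. The range of Tgfb3 was 1.23 and fell under the limit without S9-JAG1+ replicate 2, OCP replicate 2, OCP replicate 3 or chondroblast replicate 2 (1.15 to 1.195). Tgfb1 gained the call without S9-JAG1+ replicate 1 (range 1.65, adjusted p = 0.0443).

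**Figure D1:**
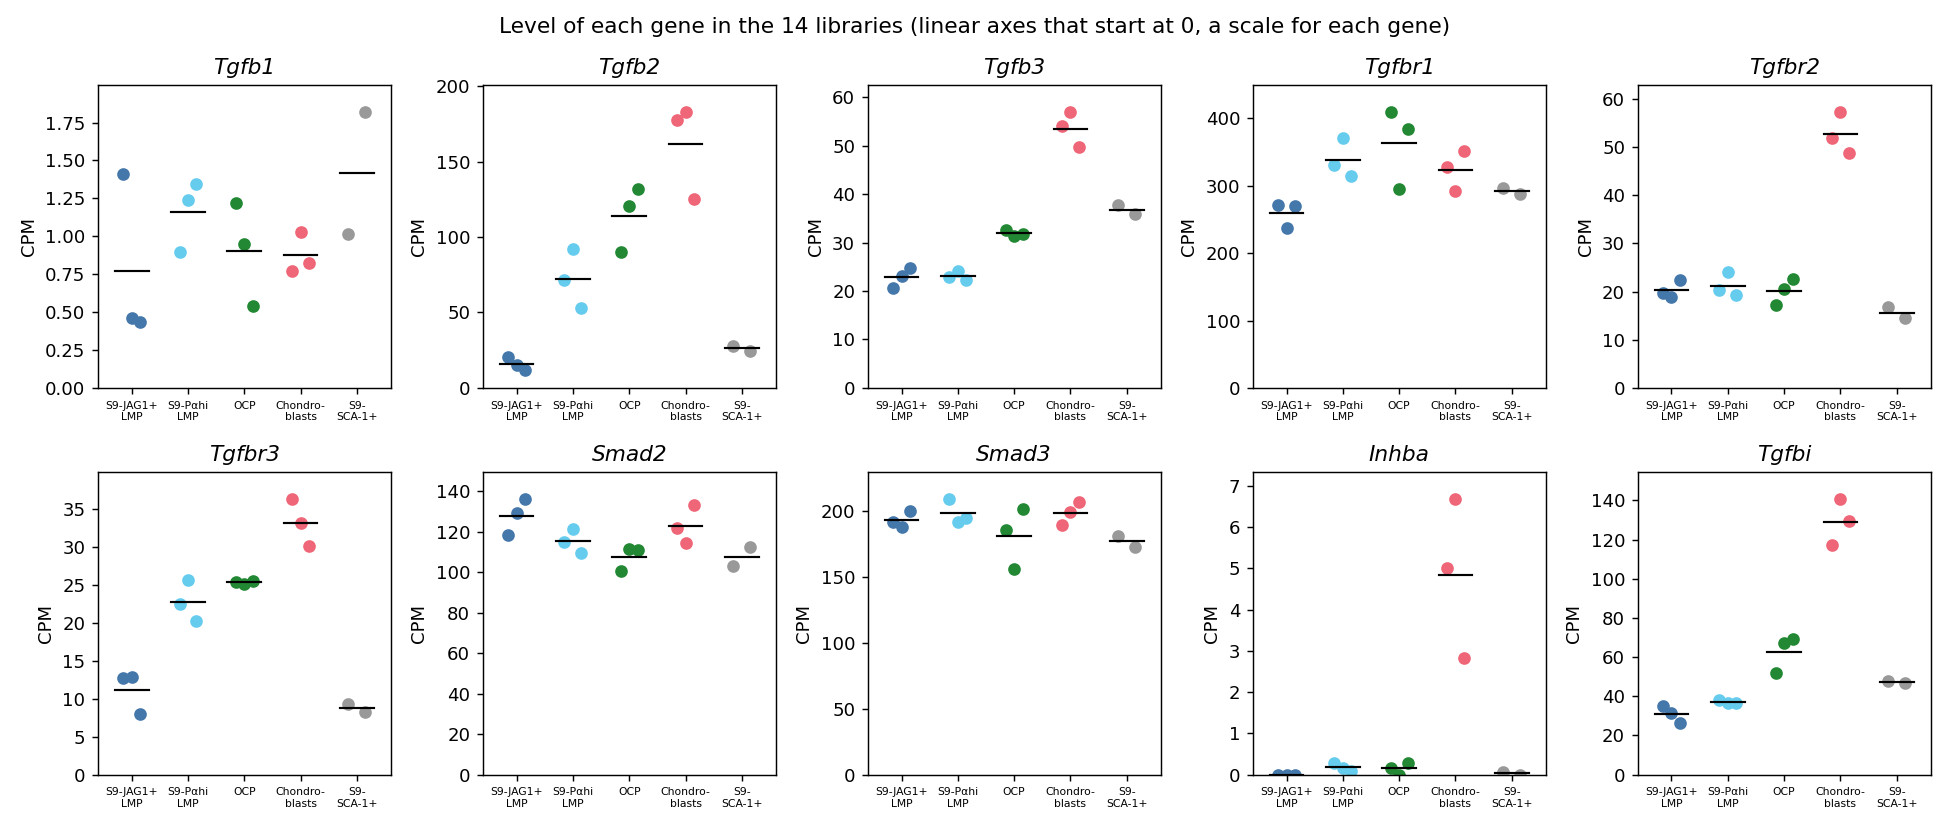
CPM of the 10 genes in the 14 libraries, with a point for each library, a line at the mean of each population and a linear axis from 0 for each gene. Tgfb2 is lowest in the S9-JAG1+ LMPs (12.1 to 20.7 CPM), Tgfbr2 and Inhba are high in the chondroblasts (48.8 to 57.2 and 2.83 to 6.67 CPM), and Smad2 and Smad3 stay within narrow ranges.

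Among the ligands, Tgfb2 (Entrez 21808, chr1:186622787-186709697, minus strand; gene spans are those of RefSeq on GRCm38.p6 with predicted transcripts, so that for Tgfb2 and Inhba they reach past the start sites used above) varied most. It stood at 20.7, 15.1 and 12.1 CPM in the S9-JAG1+ LMPs, at 71.4, 92.1 and 53.3 CPM in the S9-Pαhi LMPs, at 90.4, 121 and 132 CPM in the OCPs, at 178, 183 and 125 CPM in the chondroblasts, and at 28.0 and 24.5 CPM in the S9-SCA-1+ cells, the last given for replicates 2 and 3. All S9-JAG1+ libraries lay under all others, with the S9-SCA-1+ libraries next, whereas neighbouring populations overlapped from the S9-Pαhi LMPs upwards. The means were 15.98 ± 4.38 CPM in the S9-JAG1+ LMPs and 72.2 ± 19.4 CPM in the S9-Pαhi LMPs (SD, n = 3 each). Tgfb2 therefore rose 4.52-fold between the LMP populations, by 2.18 ± 0.23 on the log2 scale (SE, edgeR's quasi-likelihood test, Benjamini-Hochberg adjusted p = 1.3e-05). The mean of the chondroblasts was 10.1-fold that of the S9-JAG1+ LMPs, a ratio that no test of its own covers.

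Tgfb3 (Entrez 21809, chr12:86056743-86079041, minus strand) followed another order. It was at 20.6, 23.1 and 24.7 CPM in the S9-JAG1+ LMPs, at 22.9, 24.1 and 22.3 CPM in the S9-Pαhi LMPs, at 32.6, 31.4 and 31.8 CPM in the OCPs, at 54.1, 56.8 and 49.6 CPM in the chondroblasts, and at 37.7 and 35.9 CPM in the S9-SCA-1+ cells. The LMP populations overlapped, and the OCPs, the S9-SCA-1+ cells and the chondroblasts followed without overlap in this order. Of its exon bases, 12.4% also lie in exons of the opposite-strand genes Gm37804 and Gm48008 of GENCODE; whether the counting used strand is not stated, so that reads there cannot be told apart.

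Tgfb1 (Entrez 21803, chr7:25687002-25705077) was rare in every population. Its counts ranged from 11 to 51 reads per library, which is 0.436 to 1.82 CPM, and all neighbouring populations overlapped. Within the S9-JAG1+ LMPs, replicate 1 had 33 reads and replicates 2 and 3 had 11 each. Tgfb1 is known to be made by endothelial and blood cells, among others. The endothelial list of 7 genes summed to 21.7 to 26.1 CPM in the S9-SCA-1+ cells and to 8.84 to 18.7 CPM in the others, with all 7 genes detected in each population. This gap mostly follows Kdr, which had 6.09 to 10.9 CPM there and did not exceed 1.99 CPM in any other population. Egfl7 also had its highest mean there (10.4 CPM, against 6.34 to 8.33 CPM elsewhere). Pecam1, Cdh5, Tek, Tie1 and Emcn had lower means in the S9-SCA-1+ cells than in the S9-Pαhi LMPs. Of these, Tek and Tie1 had higher means in the S9-SCA-1+ cells than in each remaining population. The leukocyte list of 8 genes summed to 2.49 to 8.80 CPM, of which the widely expressed Cd68 made up 2.39 to 8.68 CPM; no other gene of the list exceeded 0.392 CPM, with the macrophage gene Adgre1 at 0 counts in every library and Itgam at 0 outside the S9-SCA-1+ cells. Within the S9-SCA-1+ cells, replicate 3 had 51 Tgfb1 reads and replicate 2 had 29, where the red blood cell list summed to 2662 and 96.4 CPM. The part of endothelial and blood cells in the Tgfb1 reads was not tested. In bulk libraries, fewer cells of a type and less RNA per cell cannot be told apart.

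Per length, the makeup of the 3 ligands differed between the populations. Tgfb2 made up 32.0 ± 7.01% of their summed RPKM in the S9-JAG1+ LMPs and 32.5 ± 1.82% in the S9-SCA-1+ cells, but 66.8 ± 5.39% in the S9-Pαhi LMPs, 70.7 ± 4.77% in the OCPs and 67.5 ± 3.28% in the chondroblasts (SD, n = 3, or 2 for S9-SCA-1+). Tgfb3 was thus the more abundant ligand in the former pair (64.7 ± 9.07% and 63.7 ± 0.146%) and Tgfb2 in the other 3 populations, in every library. The summed level was 10.48 ± 0.574 RPKM in the S9-JAG1+ LMPs, 22.6 ± 4.38 in the S9-Pαhi LMPs, 34.0 ± 4.23 in the OCPs, 50.5 ± 7.80 in the chondroblasts and 17.1 ± 0.632 in the S9-SCA-1+ cells. Tgfb1 contributed at most 5.84% in any library. These shares are descriptions with no test.

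**Figure D2:**
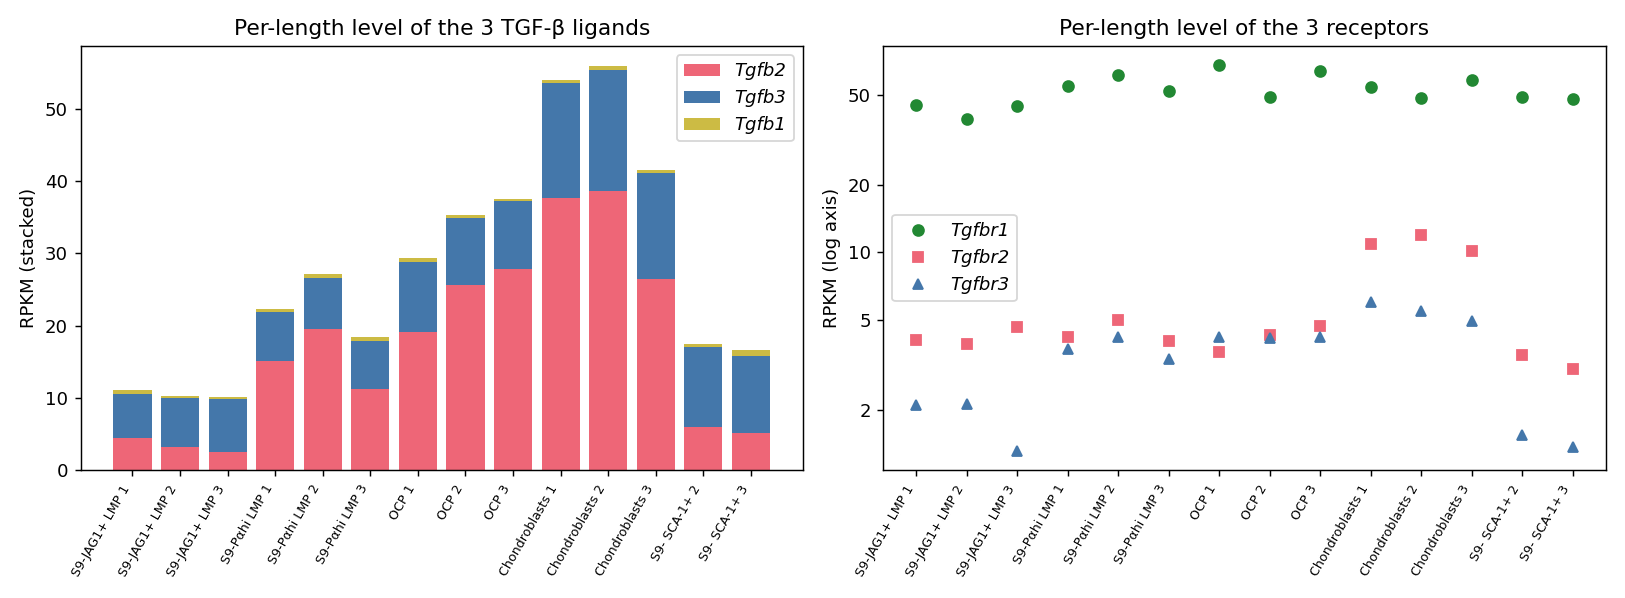
Left, RPKM of Tgfb2, Tgfb3 and Tgfb1 stacked for each library; right, RPKM of the receptors Tgfbr1, Tgfbr2 and Tgfbr3 on a log axis. The ligand sum runs from 10.1 RPKM in an S9-JAG1+ library to 55.9 RPKM in a chondroblast library, and Tgfbr1 lies above both other receptors in all 14 libraries.

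The receptors differed in level and in pattern. Tgfbr1, the type I receptor (Entrez 21812, chr4:47353222-47414926), was the most abundant of the 10 genes per length in every population, with 43.1 ± 3.28 RPKM in the S9-JAG1+ LMPs and 60.2 ± 9.87 RPKM in the OCPs (SD, n = 3). In CPM it was at 272, 237 and 270 in the S9-JAG1+ LMPs, at 330, 372 and 314 in the S9-Pαhi LMPs, at 409, 296 and 384 in the OCPs, at 328, 292 and 351 in the chondroblasts, and at 297 and 288 in the S9-SCA-1+ cells. Only the S9-JAG1+ libraries stood apart, under all others, and the highest population mean was 1.40-fold the lowest. Tgfbr1 was 0.38 ± 0.11 higher on the log2 scale in S9-Pαhi than in S9-JAG1+ LMPs, which passed the limit on p but not that on the fold change (edgeR's quasi-likelihood test, Benjamini-Hochberg adjusted p = 0.028).

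Tgfbr2, the type II receptor that binds the ligands first (Entrez 21813, chr9:116087695-116175363, minus strand), set the chondroblasts apart. It was at 19.6, 18.9 and 22.4 CPM in the S9-JAG1+ LMPs, at 20.3, 24.1 and 19.3 CPM in the S9-Pαhi LMPs, at 17.2, 20.5 and 22.5 CPM in the OCPs, at 52.0, 57.2 and 48.8 CPM in the chondroblasts, and at 16.8 and 14.5 CPM in the S9-SCA-1+ cells. The LMP populations and the OCPs overlapped one another, every chondroblast library lay above them, and both S9-SCA-1+ libraries lay below. Per length, Tgfbr1 was 10.2 ± 0.736 times as abundant as Tgfbr2 in the S9-JAG1+ LMPs, 12.7 ± 0.399 times in the S9-Pαhi LMPs, 14.6 ± 3.82 times in the OCPs and 14.9 ± 1.21 times in the S9-SCA-1+ cells, against 4.93 ± 0.836 times in the chondroblasts.

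Tgfbr3, the coreceptor betaglycan that presents TGF-β2 in particular to the type II receptor (Entrez 21814, chr5:107106567-107289629, minus strand), was at 12.7, 12.9 and 7.97 CPM in the S9-JAG1+ LMPs and at 9.37 and 8.26 CPM in the S9-SCA-1+ cells. In the other populations it was at 22.4, 25.6 and 20.3 CPM (S9-Pαhi LMPs), 25.4, 25.2 and 25.5 CPM (OCPs) and 36.3, 33.2 and 30.2 CPM (chondroblasts). The low pair overlapped each other and lay under the other 3 populations. Tgfbr3 was 2.04-fold higher in S9-Pαhi than in S9-JAG1+ LMPs, a log2 difference of 1.03 ± 0.16 that passed the limit on p but not that on the fold change (edgeR's quasi-likelihood test, Benjamini-Hochberg adjusted p = 0.00028).

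The transducers were nearly level. Smad2 (Entrez 17126, chr18:76241090-76311748) ranged from 100 to 136 CPM and Smad3 (Entrez 17127, chr9:63646766-63757994, minus strand) from 156 to 209 CPM over the 14 libraries. All neighbouring populations overlapped for both genes, and the highest population mean was 1.19-fold the lowest for Smad2 and 1.12-fold for Smad3. Smad3 was the more abundant per length in every library, at 2.72 ± 0.163 times Smad2 in the S9-JAG1+ LMPs and 3.10 ± 0.230 times in the S9-Pαhi LMPs (SD, n = 3). Neither gene passed the limit on p in any of the 4 comparisons between populations; Smad2 came closest, in chondroblasts against OCPs (0.19 ± 0.08 on the log2 scale, adjusted p = 0.1003 by edgeR's quasi-likelihood test, Benjamini-Hochberg adjusted).

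Inhba encodes the βA subunit of activins (Entrez 16323, chr13:16004256-16031609). It had 0 reads in all 3 S9-JAG1+ libraries, 7, 4 and 2 reads in the S9-Pαhi LMPs, 4, 0 and 8 reads in the OCPs, 2 and 0 reads in the S9-SCA-1+ cells, and 149, 195 and 72 reads in the chondroblasts. Outside the chondroblasts 7 of the 11 libraries were thus at or under the floor of 3 counts, with 8 reads as the highest. The chondroblasts had 4.84 ± 1.93 CPM (SD, n = 3), against 0.151 ± 0.145 CPM in the OCPs. Their mean was 32.1-fold that of the OCPs and 38.9-fold the mean floor of 3 counts per library in the S9-JAG1+ LMPs. These ratios are descriptions with no test.

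Tgfbi encodes a matrix protein that TGF-β induces in many cell types (Entrez 21810, chr13:56609586-56639359). It was at 35.2, 31.6 and 26.4 CPM in the S9-JAG1+ LMPs, at 37.9, 36.7 and 36.4 CPM in the S9-Pαhi LMPs, at 51.7, 67.2 and 69.4 CPM in the OCPs, at 117, 141 and 129 CPM in the chondroblasts, and at 48.0 and 46.6 CPM in the S9-SCA-1+ cells. No neighbouring populations overlapped, in the order S9-JAG1+ LMPs, S9-Pαhi LMPs, S9-SCA-1+ cells, OCPs and chondroblasts. The mean of the chondroblasts was 4.16-fold that of the S9-JAG1+ LMPs.

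The first step of the order in which the study arranges its populations compares S9-Pαhi with S9-JAG1+ LMPs. Of the 9 genes, 1 was called higher (Tgfb2) and none lower, where 4.42% of all tested genes were called higher and 2.58% lower; 3 of the 9 passed the limit on p alone (Tgfb2, Tgfbr1 and Tgfbr3), as 28.1% of all tested genes did. The median log2 fold change was 0.25 over the 9 genes and -0.0025 over all tested genes. Inhba had 13 reads against 0, and its S9-Pαhi mean of 0.178 ± 0.0956 CPM (SD, n = 3) was 1.43-fold the mean floor in the S9-JAG1+ LMPs. S9-Pαhi replicate 3, with 2 reads, was itself under the floor. Tgfb1 was called without S9-JAG1+ replicate 1 (log2 fold change 1.36, adjusted p = 0.041 by edgeR's quasi-likelihood test, Benjamini-Hochberg adjusted), against 0.59 ± 0.45 and an adjusted p of 0.40 with it, by the same test.

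In the second step, from S9-Pαhi LMPs to OCPs, none of the 9 genes was called by edgeR's quasi-likelihood test, where 3.48% of all tested genes were called higher and 1.36% lower. Under the limit on p alone, 3 of the 9 passed, all higher, against 20.1% of all tested genes. They were Tgfbi (0.76 ± 0.12 on the log2 scale, adjusted p = 0.00087 by edgeR's quasi-likelihood test, Benjamini-Hochberg adjusted), Tgfb3 (0.47 ± 0.09, adjusted p = 0.0026) and Tgfb2 (0.66 ± 0.22, adjusted p = 0.064). The OCP libraries lay above all S9-Pαhi libraries for Tgfbi and Tgfb3, while OCP replicate 1 lay within the S9-Pαhi range for Tgfb2. The median log2 fold change was 0.10 over the 9 genes and 0.02 over all tested genes. Marker lists of other cell types moved at the same step. A list of 5 neural crest and glial genes summed to 4.68 to 6.43 CPM in the S9-Pαhi LMPs and to 9.61 to 21.4 CPM in the OCPs, and Sox10, which defines neural crest cells and their glia, was at 0 to 0.113 and 1.87 to 3.99 CPM. An ectoderm list of 8 genes summed to 6.73 to 10.3 and 12.7 to 14.9 CPM, mostly through the keratin gene Krt18 and through Epcam, with Cdh1 at no more than 0.0813 CPM in either. Krt14, Trp63 and Fgf8 also had higher means in the OCPs. Krt8, Krt5 and Cdh1 had lower means there (2.27, 0.108 and 0.0256 CPM) than in the S9-Pαhi LMPs (2.42, 0.205 and 0.0437 CPM). All genes of both lists had reads in both populations, neither sum overlapped, and the part of such cells in these differences was not tested.

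The third step sets the chondroblasts of E11.5 against the OCPs of E10.5. Here 1 of the 9 genes rose past both limits, Tgfbr2, and none fell, where 6.60% of all tested genes were called higher and 1.16% lower. Tgfbr2 was 2.62-fold higher, a log2 fold change of 1.39 ± 0.12 (edgeR's quasi-likelihood test, Benjamini-Hochberg adjusted p = 4.4e-06). A further 3 genes passed the limit on p alone: Tgfbi at 1.04 ± 0.12, Tgfb3 at 0.75 ± 0.08 and Tgfbr3 at 0.39 ± 0.15 on the log2 scale. That makes 4 of 9, against 34.8% of all tested genes. Tgfb2 was 0.50 ± 0.22 higher and lay beyond the limit on p (adjusted p = 0.104 by edgeR's quasi-likelihood test). The median log2 fold change was 0.39 over the 9 genes and -0.02 over all tested genes. The neural crest and glial list summed to 21.1 to 29.2 CPM in the chondroblasts, which overlaps the OCPs. The ectoderm list summed to 19.9 to 23.3 CPM, without overlap, with higher means of Krt18 (10.1 against 7.23 CPM), Epcam (5.84 against 3.35), Fgf8 (2.35 against 0.245) and Cdh1 (0.240 against 0.0256). The means of Krt5, Krt14 and Trp63 were also higher, whereas Krt8 was lower without overlap (1.52 against 2.27 CPM). All genes of both lists had reads in the chondroblasts, and their part in these differences was not tested.

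The S9-SCA-1+ cells were set against the average of all 4 other populations. Of the 9 genes, 2 were called lower, Tgfb2 (log2 fold change -1.37 ± 0.23) and Tgfbr3 (-1.29 ± 0.16), with adjusted p of 0.00033 and 2.2e-05 by edgeR's quasi-likelihood test, Benjamini-Hochberg adjusted. None was called higher, where 6.80% of all tested genes were called lower and 4.46% higher. Tgfbr2 was 0.73 ± 0.12 lower and Tgfb3 0.26 ± 0.08 higher, which passed the limit on p alone; 4 of 9 did so, against 46.4% of all tested genes. Neither call held against the 3 other populations of E10.5, where Tgfb2 was at -0.96 and Tgfbr3 at -1.08, past the limit on p and short of that on the fold change. Without replicate 3, the library rich in red blood cell RNA, Tgfbr3 was at -1.1999 and just short of the limit, while Tgfb2 kept its call. The median log2 fold change was -0.13 over the 9 genes and -0.01 over all tested genes. Inhba gets no fold here, since a library of the S9-SCA-1+ cells and all S9-JAG1+ libraries were at 0.

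**Figure D3:**
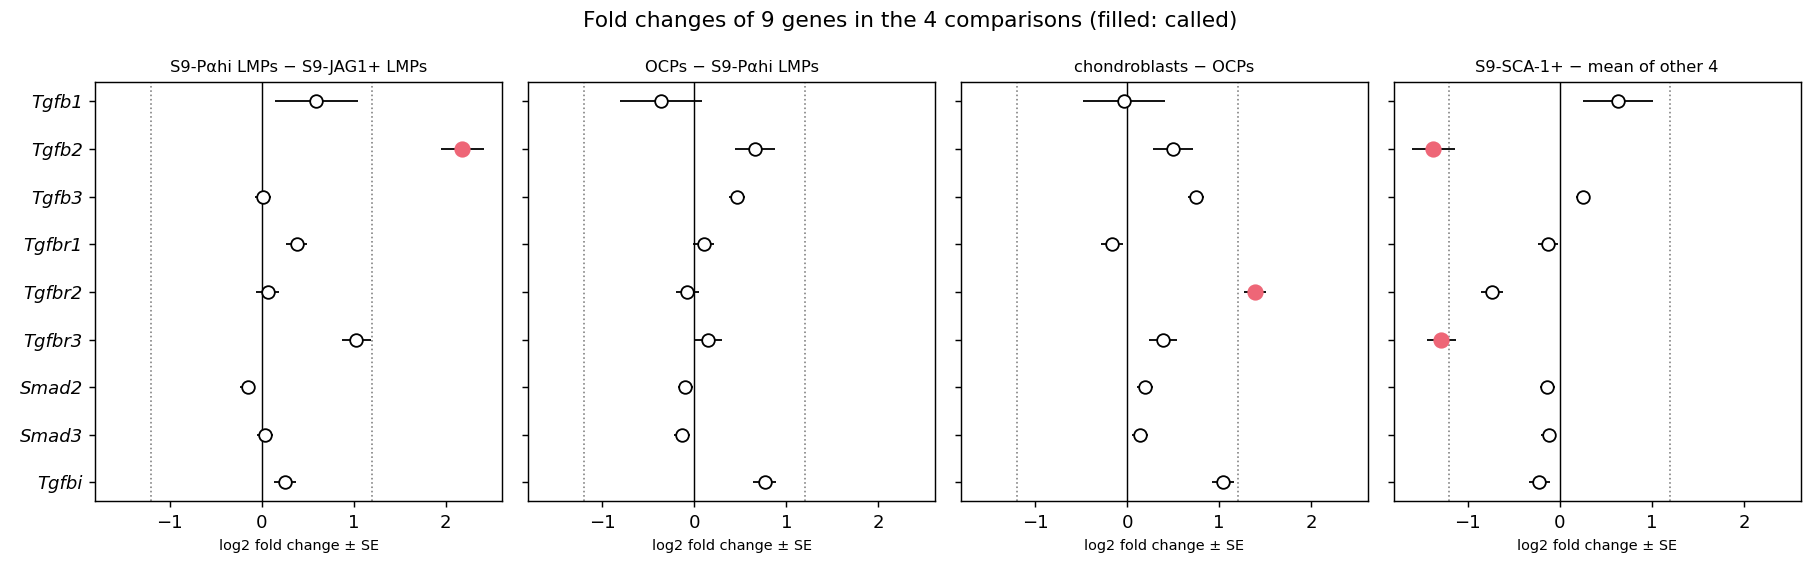
log2 fold changes with their SE for 9 genes in the 4 comparisons; filled points were called and dotted lines mark the limit of 1.2 in each direction. Inhba is left out because it passed the filter on low counts only through the chondroblasts; Smad2 and Smad3 lie close to 0 in each panel.

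Around the 10 genes, 51 further genes of the pathway were examined in 4 lists, of which 49 passed the filter on low counts. They were called higher or lower in 5 and 1 cases from S9-JAG1+ to S9-Pαhi LMPs, in 5 and 2 cases from S9-Pαhi LMPs to OCPs, in 9 and 0 cases from OCPs to chondroblasts, and in 4 and 12 cases in the S9-SCA-1+ cells. The background shares of these comparisons are those given above. The medians of their log2 fold changes were 0.0023, 0.09, 0.38 and -0.34 in this order. The joint test called 30 of the 49, where 29.2% of all tested genes were called. The counts for the chondroblasts and for the joint test include Ltbp2, which passed the filter on low counts only through the chondroblasts.

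The first list holds the proteins that keep TGF-β latent and release it, with 11 of 12 genes tested. Ltbp1 and Ltbp3, which tie latent TGF-β to the matrix, rose in the chondroblasts to 257 ± 42.1 and 67.9 ± 10.9 CPM, from 75.8 ± 9.08 and 21.2 ± 5.49 CPM in the OCPs (SD, n = 3; log2 fold changes 1.76 ± 0.17 and 1.68 ± 0.18). Thbs1, thrombospondin 1, which can activate latent TGF-β, was at 13.7 ± 4.03 CPM in the S9-Pαhi LMPs, 69.2 ± 27.7 in the OCPs and 176 ± 27.8 in the chondroblasts, and rose at both steps. Itgb8, a subunit of an integrin that activates TGF-β, rose from 1.70 ± 0.128 to 8.38 ± 3.76 CPM between the S9-Pαhi LMPs and the OCPs. Fbn1, the microfibril protein fibrillin 1, rose from 33.1 ± 10.7 to 80.4 ± 16.1 CPM between the LMP populations. In the S9-SCA-1+ cells Thbs1 and Ltbp1 were called lower, at -1.92 ± 0.30 and -1.46 ± 0.17 on the log2 scale. Over the 4 comparisons in the order above, the list had 1, 2, 4 and 0 genes called higher and 1, 0, 0 and 3 called lower. Among these were 3 low genes named after their values were seen: Nrros, lower in the first comparison, Ltbp2, higher in the third, and Lrrc32, lower in the fourth. Ltbp2 had 14 to 17 reads in the chondroblast libraries and at most 8 in any other. Like Inhba, it passed the filter on low counts only through the chondroblasts, so that its call there carries no weight.

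The second list covers the activin branch, coreceptors and antagonists, with 11 of 12 genes tested. Bgn, the proteoglycan biglycan, fell from 35.1 ± 0.506 CPM in the S9-Pαhi LMPs to 13.9 ± 3.06 CPM in the OCPs and rose to 42.2 ± 6.79 CPM in the chondroblasts. Acvrl1, a type I receptor best known from endothelium, rose from 2.01 ± 0.599 to 9.10 ± 2.26 CPM between OCPs and chondroblasts, where the endothelial list summed to 10.2 to 11.4 and 8.84 to 10.4 CPM. Eng, the coreceptor endoglin, was at 19.4 ± 0.151 CPM in the S9-SCA-1+ cells and no more than 8.97 ± 1.85 CPM on average elsewhere, and was called higher there (1.62 ± 0.13 on the log2 scale), where Kdr was the endothelial marker that stood out, as given above. Fst, the activin antagonist follistatin, was named after its values were seen because its average is low: it was at 0.121 ± 0.103, 0.276 ± 0.0841, 1.77 ± 0.661 and 3.97 ± 0.820 CPM from the S9-JAG1+ LMPs to the chondroblasts and at 8.93 ± 0.0141 CPM in the S9-SCA-1+ cells. It was called higher in the OCPs and in the S9-SCA-1+ cells. Over the 4 comparisons 0, 1, 3 and 2 genes of the list were called higher and 0, 1, 0 and 3 lower, which includes the low genes Dcn (higher in the chondroblasts, lower in the S9-SCA-1+ cells) and Inhbb (lower in the S9-SCA-1+ cells), also named after their values were seen.

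The third list, with all 13 genes tested, holds the common and inhibitory Smads and intracellular regulators, and it changed least. Over the 4 comparisons only Dab2 was called higher and only Bambi lower, once each. Dab2, an adaptor protein that binds Smads and receptors, rose from 12.7 ± 3.09 to 44.0 ± 10.8 CPM between the LMP populations (log2 fold change 1.80 ± 0.21). Bambi, a pseudoreceptor that dampens signalling, was at 15.5 ± 0.273 CPM in the S9-SCA-1+ cells and between 27.0 ± 2.21 and 68.5 ± 0.942 CPM on average elsewhere (-1.42 ± 0.16). Smad4, the common partner of SMAD2 and SMAD3, stayed between mean levels of 169 ± 9.24 and 208 ± 9.68 CPM, and Smad7, the inhibitory Smad, between 61.7 ± 2.91 and 103 ± 22.6 CPM; neither was called in any of the 4.

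The fourth list holds genes known to be induced by TGF-β, all 14 tested. Between the LMP populations 3 of them rose: Col1a1 (90.2 ± 28.5 to 299 ± 55.4 CPM) and Col1a2 (355 ± 35.4 to 990 ± 197 CPM), the chains of type I collagen, and Scx, the transcription factor scleraxis of tendon progenitors (16.2 ± 2.10 to 45.1 ± 10.2 CPM). Scx rose again to 112 ± 10.53 CPM in the OCPs, as did Ccn2, connective tissue growth factor (8.83 ± 2.15 to 28.7 ± 11.9 CPM). In the chondroblasts 2 low genes were called higher, Acta2 and Cdkn2b, both named after their values were seen; Acta2 was also the 1 gene called lower in the OCPs. The S9-SCA-1+ cells had 5 of the 14 called lower, among them Col1a1 (-2.48 ± 0.23) and Snai2 (-1.94 ± 0.13), and 2 called higher. Of the latter, Cdkn1a, the cell cycle inhibitor p21, was at 63.5 ± 1.11 CPM against means of 0.894 to 1.64 CPM in the other populations (5.78 ± 0.20 on the log2 scale, edgeR's quasi-likelihood test, Benjamini-Hochberg adjusted p = 3.6e-11). These genes answer to other signals too.

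**Figure D4:**
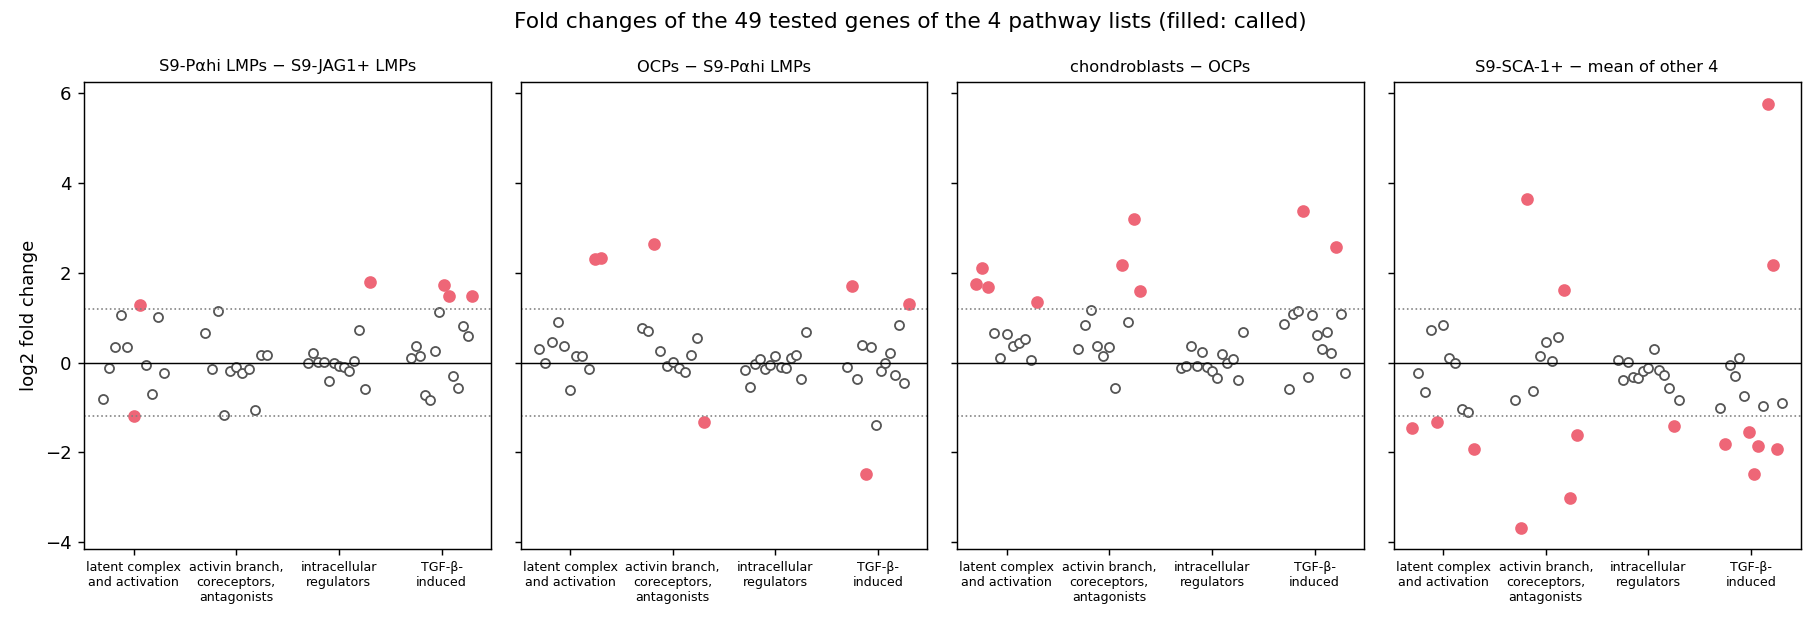
log2 fold changes of the 49 tested pathway genes by list in the 4 comparisons; filled points were called and dotted lines mark the limit of 1.2. In the third panel all 9 called genes lie above 0, and in the fourth 12 of 16 lie below. The 9 include Ltbp2, which passed the filter on low counts only through the chondroblasts.

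As a description, the genes most like each of the varying genes over the 14 libraries were those with the highest Pearson correlation of log2 CPM among 11884 others (11885 for Tgfb1 and Inhba). For Tgfb2 they were Negr1 (r = 0.991), Astn1 (0.988) and Slc35f1 (0.986). For Tgfbr3 they were Fgfr2 (0.982), Samd4 (0.979) and Pcdh18 (0.979), and for Tgfbi Vwa5a (0.986), Flrt2 (0.979) and Tubb4a (0.977). Tgfb3 was closest to St3gal1 (0.966), Tgfbr2 to Emp1 (0.973) and Inhba to Adgrb2 (0.963). The level genes had looser neighbours, with 0.884 at best for Smad2 and 0.880 for Smad3, and so did Tgfb1 with 0.816. The points share 5 populations, so that such values mostly follow the population means.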

How the data were processed

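The data are counts of reads per gene in 14 RNA-seq libraries of sorted mouse forelimb bud cells. The counts were deposited by the authors as whole numbers without normalization: per their methods, single-end reads of poly(A) RNA were aligned to mm10 with STAR, with 1 position kept for a read that fits several, and reads starting in an exon of a RefSeq mRNA were counted with QuasR. Strand use is not stated. The table also holds a gene length, used for RPKM. Entrez identifiers were matched to symbols for 24374 of 24454 genes (RefSeq, GRCm38.p6); the others held 0.358% of the counts.

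Groups came from the sample labels. edgeR 4.0.16 in R 4.3.3 was used with filterByExpr, TMM, a mean for each population and quasi-likelihood F tests on all 14 libraries, with Benjamini-Hochberg adjustment over 15125 genes; the SE is the log2 fold change divided by the square root of F, and log2 CPM used a prior count of 2. Pathway genes were named by rule: in each list and comparison up to 3 called genes with the largest fold change and an average of at least 1 log2 CPM. The genes, lists and comparisons were chosen with earlier results of these data known. On simulated counts, 200 of 14798 to 14808 tested genes were changed 4-fold. The comparison in which they were changed recovered 198 to 200 with 2 to 7 false calls, and the joint test 197 to 199 with 5 to 12. The changed genes were drawn above a limit on mean counts, so that rare genes and smaller changes were not covered. Alternatives used DESeq2 1.42.0, other scalings, filters, tests and limits, thinned counts, fewer libraries and the replicate number. Python 3.11.15 with pandas 2.3.3 and matplotlib 3.10.9 was used for tables and drawing.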

Additional observations from a re-analysis of the deposited data

How the results depend on the processing

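Of 244 counts of called genes recomputed under the alternatives, 230 stayed within 1.5 times the reported count, and of 918 fold changes of the 10 genes 895 kept their direction and their side of the limits. Both totals include Inhba, which passed the filter on low counts only through the chondroblasts. The calls below leave Inhba out. Its fold changes for OCPs against S9-Pαhi LMPs are listed only because they changed sign. With no limit on the fold change, 3, 3, 4 and 4 of the 9 genes passed in the 4 comparisons, in the order of the report. Of the other 49 tested pathway genes, which include Ltbp2, 17, 12, 28 and 36 passed. The shares of all tested genes were 28.1%, 20.1%, 34.8% and 46.4%. With only the libraries of the 2 populations, Tgfb2 kept its call between the LMPs. None of the 9 genes was called for the S9-SCA-1+ cells against the 3 other populations of E10.5, where Tgfbi turned to 0.18. When each library was left out in turn, Tgfb1 gained a call between the LMPs without S9-JAG1+ replicate 1. Tgfbr3 lost its call for the S9-SCA-1+ cells without their replicate 3. The 9 genes kept all other calls in the 4 comparisons. Fold changes that changed sign were all of genes without a call: for chondroblasts against OCPs Tgfb1 (0.039 with library totals, 0.0043 with the replicate block, 0.036 with thinned counts), and for OCPs against S9-Pαhi LMPs Inhba (0.081 with thinned counts). Leaving out each library in turn gave -0.050 to 0.090 for Tgfb3, -0.00020 to 0.076 for Smad3 and -0.037 to 0.15 for Tgfbr2 between the LMPs, -0.20 to 0.025 for Tgfbr2 and -1.05 to 0.32 for Inhba in OCPs against S9-Pαhi LMPs, and -0.33 to 0.25 for Tgfb1 in chondroblasts against OCPs. Whether replicate numbers pair the libraries stayed undecided, since pairs with different numbers were not compared. Over 26 pairs with the same number, the deviations from the population means correlated at -0.18 to 0.31 (median -0.0048). The 4 above 0.1 were S9-JAG1+ with OCP replicates 1 (0.31) and 2 (0.22), S9-Pαhi with OCP replicate 2 (0.29), and S9-Pαhi with chondroblast replicate 3 (0.12). With the replicate block, the 9 genes had the same calls as without it. The counts were 1, 0, 1 and 2 in the 4 comparisons and 5 in the joint test. The other pathway genes, which include Ltbp2, gave 5, 8, 9 and 16 in the 4 comparisons and 29 in the joint test. Depth limits Tgfb1 and Inhba, with at most 51 reads and, outside the chondroblasts, 8 reads.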
